A study of Rattus norvegicus with 12 samples.

Results

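The genes described here are 10 members of the Notch pathway: the receptor genes Notch1, Notch2 and Notch3, the ligand genes Jag1 and Jag2, the transcription factor genes Hes1, Hey1, Hey2 and Heyl, and Nrarp. They were taken as a list of named pathway genes, chosen with earlier results of these data known, and matched to probe sets by gene symbol. All 10 were found, each with 1 probe set, among 14506 genes measured. The cells were aortic smooth muscle cells of the Sprague-Dawley rat strain, labelled as differentiated, which had been grown in M199 medium with 10% fetal bovine serum and then kept without serum for 48 h. There were 4 groups of 3 arrays (Affymetrix Rat Gene 1.0 ST): untreated cells, and cells after 6, 12 or 24 h of 100 nM angiotensin II (Ang II), the vasoconstrictor peptide of the renin-angiotensin system. The times are those of the sample titles and the study design, whereas the treatment protocol in the labels names 1, 3 or 24 h. Replicates are labelled biological, but no animal or culture is named for each, so the tests see no more than the array-to-array spread, which may be technical. Untreated cells kept for as long as the treated ones were not analysed here, so that Ang II and time in culture cannot be told apart.

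Notch receptors are membrane proteins that are cut after they bind a Jagged or Delta ligand on a neighbouring cell. The last cut, by the gamma-secretase complex, frees an intracellular part that enters the nucleus, joins the DNA-binding protein RBPJ and switches on genes such as those of the HES and HEY repressors and of Nrarp, which in turn limits the pathway. In the vessel wall Notch3 is typical of smooth muscle, and Jag1 on endothelial and smooth muscle cells takes part in keeping arterial smooth muscle differentiated.

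The 4 members with the widest range of group means were Jag1, Hes1, Hey2 and Nrarp, and the 250 bases before the start of each of these genes are shown because RBPJ binds a short core sequence that can be looked for there. RefSeq (GRCr8) gave such a sequence for 9 of the 10 members. Capitals mark TGGGAA, the core of the RBPJ motif, on either strand, together with the G before it where the longer form GTGGGAA is present, so that each GTGGGAA also counts as a TGGGAA.
Hes1, chr11:84213046-84213295, minus strand: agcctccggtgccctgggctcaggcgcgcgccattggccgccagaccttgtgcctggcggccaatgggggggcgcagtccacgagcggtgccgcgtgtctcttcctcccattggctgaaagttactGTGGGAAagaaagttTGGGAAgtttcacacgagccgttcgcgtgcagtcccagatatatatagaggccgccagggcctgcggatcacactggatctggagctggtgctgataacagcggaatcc
Hey2, chr1:28640850-28641099, plus strand: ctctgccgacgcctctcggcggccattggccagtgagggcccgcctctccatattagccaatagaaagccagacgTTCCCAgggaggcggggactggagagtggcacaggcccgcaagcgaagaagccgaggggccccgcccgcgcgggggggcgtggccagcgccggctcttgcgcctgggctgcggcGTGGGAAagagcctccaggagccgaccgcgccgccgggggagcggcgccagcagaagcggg
Jag1, chr3:144894884-144895133, minus strand: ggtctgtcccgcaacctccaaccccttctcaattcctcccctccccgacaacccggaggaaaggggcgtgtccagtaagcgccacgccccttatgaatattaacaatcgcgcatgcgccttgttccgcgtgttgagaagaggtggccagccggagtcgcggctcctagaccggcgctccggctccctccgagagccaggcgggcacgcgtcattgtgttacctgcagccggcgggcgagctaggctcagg
Nrarp, chr3:28390495-28390744, plus strand: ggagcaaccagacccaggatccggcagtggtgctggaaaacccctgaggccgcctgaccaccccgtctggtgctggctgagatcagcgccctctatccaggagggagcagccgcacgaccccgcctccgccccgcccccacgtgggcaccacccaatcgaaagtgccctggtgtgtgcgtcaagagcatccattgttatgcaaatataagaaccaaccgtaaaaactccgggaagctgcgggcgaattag
In the Hes1 window TGGGAA occurred 2 times, at 123 and 109 bases before the start, and the first of these was part of GTGGGAA. The Hey2 window also held it 2 times, on the opposite strand at 175 bases and, as part of GTGGGAA, at 60 bases before the start. The other 7 members with a sequence had no TGGGAA in this window, which says only that these letters are not there. Of 33469 rat promoter windows of the same length, 22.1% held TGGGAA, 2.71% held it 2 or more times and 5.27% held GTGGGAA. The N-box CACNAG, a sequence that HES proteins bind, was searched on both strands too: it occurred 4 times before Hes1 and before Notch1, 2 times before Nrarp and 1 time before Notch3, so in 4 of the 9 members with a sequence. Of all windows 37.2% held it, 8.02% held it 2 or more times and 0.197% held it 4 or more times. The E-box CACGTG, which reads the same on both strands, occurred 1 time before Nrarp (5.59% of all windows). No other member with a sequence had either.

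Jag1, the gene of a Notch ligand, showed the widest excursion of the 10 members: its RNA was 2.85-fold lower 6 h after Ang II and was back near its starting level by 24 h. The log2 values of Jag1 were 13.08, 13.09 and 13.09 in untreated cells, 11.59, 11.54 and 11.60 at 6 h, 12.81, 12.87 and 12.83 at 12 h, and 13.23, 13.12 and 13.11 at 24 h. The 6 h arrays lay far below all others, the 12 h arrays lay between, and the 24 h arrays lay just above the untreated ones without overlap. The log2 change against untreated cells was −1.51 ± 0.04 (SE, n = 3 per group) at 6 h (limma, adjusted p = 3.21e-10) and −0.25 ± 0.04 at 12 h (adjusted p = 0.000791). At 24 h it was 0.07 ± 0.04, which did not pass (adjusted p = 0.273, 95% confidence interval −0.03 to 0.16). With each array centred on its median the 24 h change of Jag1 was 0.12 and passed (adjusted p = 0.0139). In bulk RNA, fewer cells that make a transcript and less of it per cell cannot be told apart.

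Jag2, the gene of the related ligand, had values of 7.51 to 7.63 in untreated cells, 7.36 to 7.52 at 6 h, 7.43 to 7.67 at 12 h and 7.56 to 7.86 at 24 h. Its groups overlapped at every time with the untreated arrays, and no comparison with untreated cells passed. The changes were −0.13 ± 0.08 at 6 h (95% confidence interval −0.31 to 0.06), −0.05 ± 0.08 at 12 h (−0.23 to 0.14) and 0.15 ± 0.08 at 24 h (−0.03 to 0.33). Jag2 was higher at 24 h than at 6 h, its highest and lowest groups, by 0.28 ± 0.08 on the log2 scale (limma, adjusted p = 0.0206). That call was lost when 6 h replicate 1 (adjusted p = 0.0506), 6 h replicate 3 (0.0804), 24 h replicate 1 (0.0832) or 24 h replicate 2 (0.0536) was left out. The comparison was added after the data were seen, and the limma F test over the 4 groups did not pass for Jag2 (adjusted p = 0.0738). The difference between the ligands within each array, Jag1 minus Jag2 on the log2 scale, shifted by −1.38 at 6 h, −0.21 at 12 h and −0.08 at 24 h from its untreated mean, with SDs of 0.07 to 0.11 (n = 3 per group). It varied among the groups by an exact permutation test over all 15400 groupings of the 12 arrays (p = 0.0015, adjusted p = 0.0015 over the 6 pairs of members compared in this way).

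**Figure D1:**
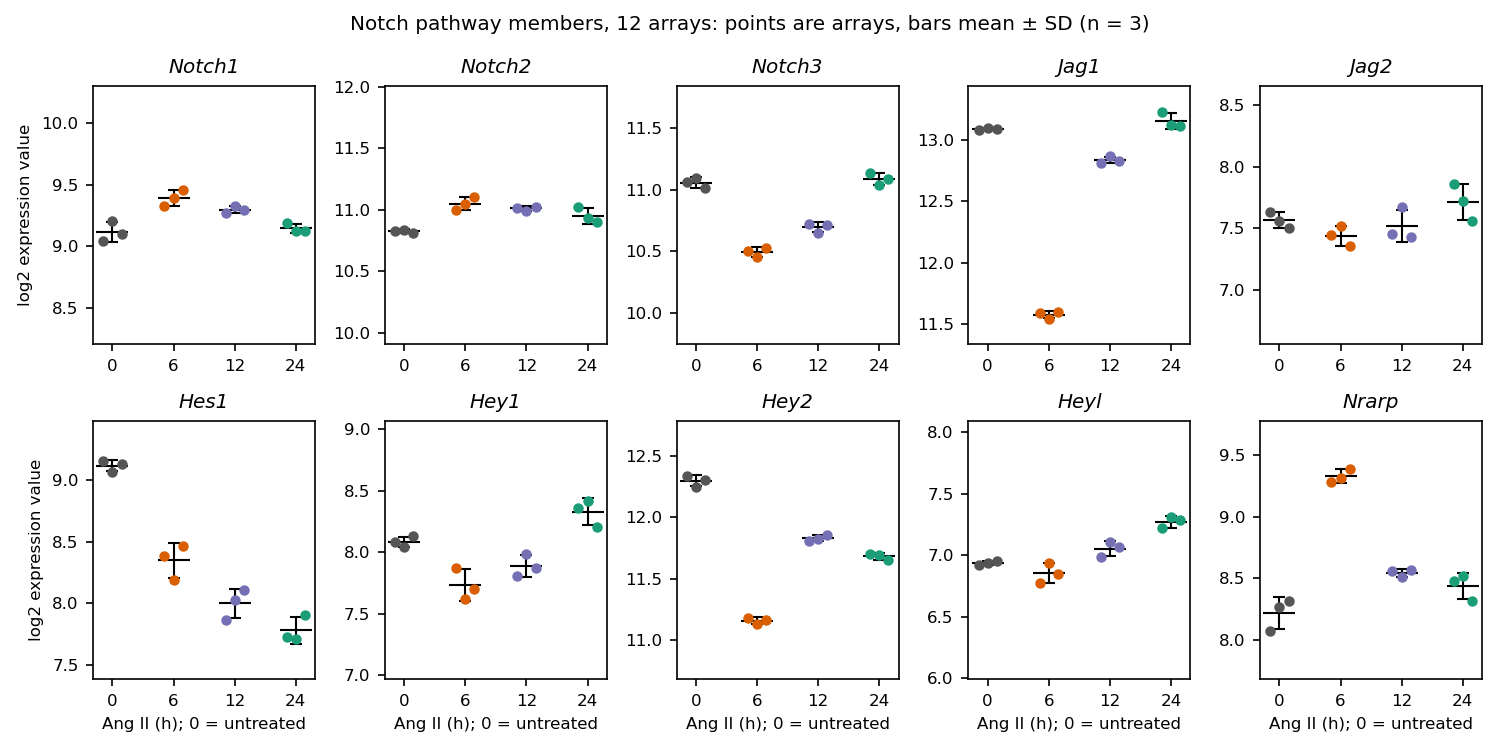
Log2 expression value (vertical axis, with the same span in every panel) of each of the 10 members against hours of Ang II (0 for untreated cells); points are single arrays, horizontal bars the mean and vertical bars the SD of 3 arrays. The Jag1 points fall from about 13.09 to 11.58 at 6 h and return, Hes1 falls from 9.12 to 7.78 by 24 h, and the 3 Nrarp points at 6 h stand above all others.

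Notch3, the receptor gene typical of smooth muscle, followed the same order of groups as Jag1 with a smaller range. The log2 values of Notch3 were 11.06, 11.10 and 11.01 in untreated cells, 10.50, 10.45 and 10.53 at 6 h, 10.72, 10.65 and 10.71 at 12 h, and 11.14, 11.04 and 11.08 at 24 h. The 6 h and 12 h arrays lay below the untreated ones and apart from each other, while the 24 h and untreated arrays overlapped. Notch3 was 1.48-fold lower at 6 h (log2 change −0.56 ± 0.04, adjusted p = 1.12e-06) and 1.29-fold lower at 12 h (−0.36 ± 0.04, adjusted p = 7.34e-05). At 24 h the change was 0.03 ± 0.04 (adjusted p = 0.659, 95% confidence interval −0.07 to 0.13).

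Notch1 and Notch2, the receptor genes with wider expression, moved the other way and by less. For Notch1 the values were 9.04, 9.20 and 9.10 in untreated cells, 9.33, 9.39 and 9.46 at 6 h, 9.27, 9.33 and 9.30 at 12 h, and 9.19, 9.13 and 9.12 at 24 h. All 6 h and 12 h arrays of Notch1 were above the untreated arrays, and the 24 h arrays overlapped with them. Notch1 rose 1.21-fold at 6 h (0.28 ± 0.05, adjusted p = 0.000936) and 1.13-fold at 12 h (0.18 ± 0.05, adjusted p = 0.0198), and its 24 h change was 0.03 ± 0.05 (95% confidence interval −0.08 to 0.14). The 12 h call was lost without untreated replicate 1 (adjusted p = 0.0862), untreated replicate 3 (0.0662) or 12 h replicate 2 (0.0684). For Notch2 the values were 10.81 to 10.84 in untreated cells, 11.00 to 11.10 at 6 h, 10.99 to 11.03 at 12 h and 10.90 to 11.02 at 24 h. Every Ang II array of Notch2 was above every untreated array. Notch2 rose 1.17-fold at 6 h (0.22 ± 0.04, adjusted p = 0.00155) and 1.14-fold at 12 h (0.18 ± 0.04, adjusted p = 0.00793). Its 24 h change of 0.12 ± 0.04 narrowly missed the threshold (adjusted p = 0.0541), and it passed without 24 h replicate 3 (adjusted p = 0.0449), with array centring (0.00494), a further quantile normalization (0.0261), only genes above the median level (0.0177) or a trended and robust variance (0.0131).

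The receptors changed unequally within the same arrays. From its untreated mean, Notch1 minus Notch3 shifted by 0.84 at 6 h, 0.55 at 12 h and 0.00 at 24 h on the log2 scale. Notch2 minus Notch3 shifted by 0.79, 0.55 and 0.09 at the same times, with SDs of at most 0.07 in any group for either pair. Both differences varied among the 4 groups by the exact permutation test (p = 0.00065 and adjusted p = 0.00078 for the first pair; p = 6.5e-05, the smallest the groupings can give, and adjusted p = 0.00019 for the second).

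**Figure D2:**
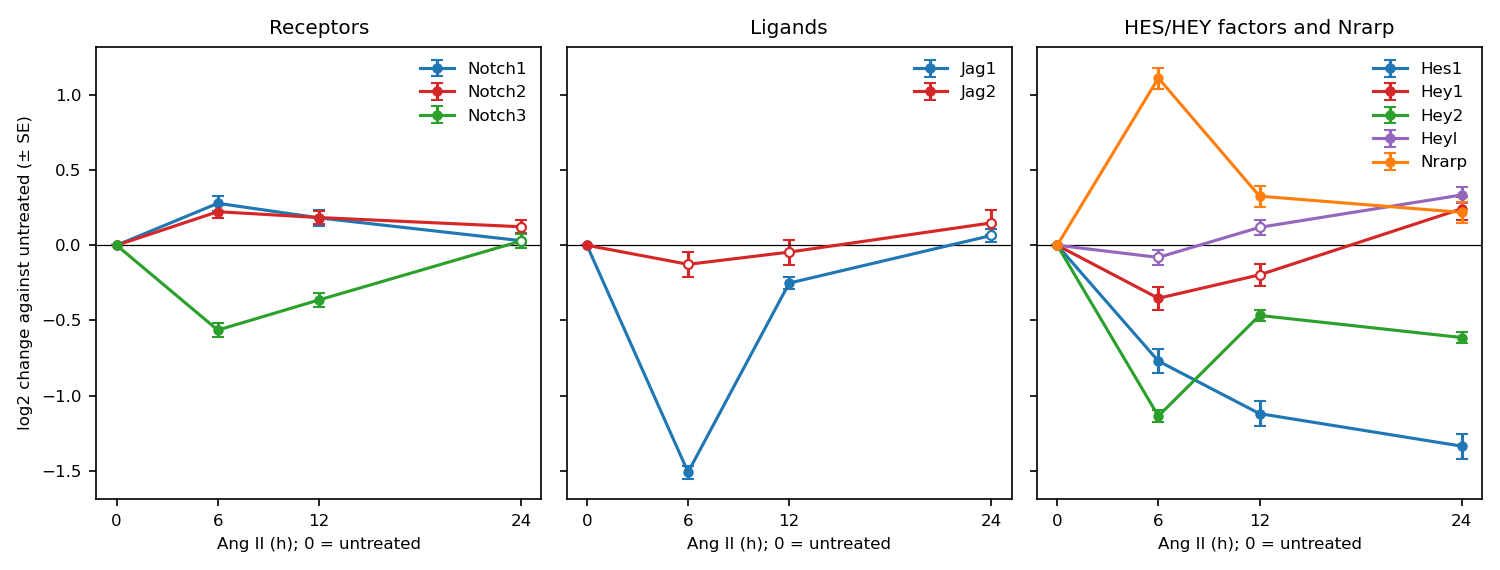
Log2 change against untreated cells (vertical axis, with SE bars from the fit) at 6, 12 and 24 h of Ang II (horizontal axis), for receptors, ligands, and the HES/HEY genes with Nrarp; open points did not pass an adjusted p of 0.05. Jag1 and Notch3 dip and return, Hes1 is at −1.34 by 24 h (its step from 12 to 24 h did not pass), and Nrarp peaks at 1.11.

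Hes1, the gene of a transcriptional repressor and a direct Notch target, fell at 6 h and had not returned by 24 h. The log2 values of Hes1 were 9.15, 9.07 and 9.13 in untreated cells, 8.38, 8.19 and 8.46 at 6 h, 7.86, 8.02 and 8.10 at 12 h, and 7.72, 7.71 and 7.91 at 24 h. Every Ang II array was below every untreated array, and only the 12 h and 24 h arrays overlapped with each other. Hes1 was 1.71-fold lower at 6 h (−0.77 ± 0.08, adjusted p = 1.38e-05), 2.17-fold lower at 12 h (−1.12 ± 0.08, adjusted p = 1.06e-06) and 2.53-fold lower at 24 h (−1.34 ± 0.08, adjusted p = 3.03e-07). The step from 6 to 12 h passed (−0.35 ± 0.08, adjusted p = 0.00744), and that from 12 to 24 h did not (−0.22 ± 0.08, adjusted p = 0.0726). The later step passed without 6 h replicate 2 (adjusted p = 0.0451), 12 h replicate 1 (0.0333) or 24 h replicate 3 (0.0397), with only genes above the median level (0.0262) and with a trended and robust variance (0.0316).

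Hey2, a HEY repressor gene prominent in arterial cells, was also lower at every time, but its lowest point came early. The values of Hey2 were 12.34, 12.25 and 12.31 in untreated cells, 11.18, 11.13 and 11.16 at 6 h, 11.81, 11.82 and 11.86 at 12 h, and 11.70, 11.70 and 11.65 at 24 h. The 4 groups did not overlap at all. Hey2 was 2.20-fold lower at 6 h (−1.14 ± 0.04, adjusted p = 1.49e-09), 1.38-fold lower at 12 h (−0.47 ± 0.04, adjusted p = 3.41e-06) and 1.53-fold lower at 24 h (−0.61 ± 0.04, adjusted p = 4.17e-07). It regained 0.67 ± 0.04 between 6 and 12 h (adjusted p = 3.48e-07). Between 12 and 24 h it lost 0.15 ± 0.04 (adjusted p = 0.0164), a call that was lost without 12 h replicate 3 (adjusted p = 0.0597) or 24 h replicate 3 (0.0603), with array centring (0.0695) and with these groups fitted alone (0.0656).

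Hey1, a related repressor gene, was lower at 6 h and higher at 24 h than in untreated cells. Its values were 8.08, 8.05 and 8.13 in untreated cells, 7.87, 7.62 and 7.70 at 6 h, 7.81, 7.99 and 7.87 at 12 h, and 8.36, 8.41 and 8.21 at 24 h. The 6 h and 12 h arrays lay below the untreated ones and overlapped with each other, and the 24 h arrays lay above. Hey1 was 1.28-fold lower at 6 h (−0.35 ± 0.08, adjusted p = 0.0027) and 1.18-fold higher at 24 h (0.24 ± 0.08, adjusted p = 0.0297). The 12 h change was −0.20 ± 0.08 (adjusted p = 0.0772), and it passed without 6 h replicate 1 (adjusted p = 0.0496), with genes above the median level (0.0255) or with these groups fitted alone (0.0456). The 24 h rise was lost without untreated replicate 1 (adjusted p = 0.0736), untreated replicate 2 (0.0906), 24 h replicate 1 (0.0801) or 24 h replicate 2 (0.109). The difference between 24 h and 6 h, 0.60 ± 0.08, passed (adjusted p = 5.43e-05).

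Heyl, the remaining HEY gene, had values of 6.92 to 6.95 in untreated cells, 6.78 to 6.94 at 6 h, 6.99 to 7.11 at 12 h and 7.22 to 7.31 at 24 h. Only the 6 h arrays overlapped with the untreated ones. It rose 1.26-fold at 24 h (0.33 ± 0.05, adjusted p = 0.000345), while the changes of −0.08 ± 0.05 at 6 h (95% confidence interval −0.19 to 0.03) and 0.12 ± 0.05 at 12 h (0.01 to 0.23, adjusted p = 0.112) did not pass. Detection calls were not used here, so how far Heyl and Jag2, the 2 members below the median level of all genes, stood above the array background is unknown. The same holds for the lowest groups of Hes1 (7.78 at 24 h) and Hey1 (7.73 at 6 h and 7.89 at 12 h). Their means lay below the array medians over all genes, 7.92 to 8.03.

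Nrarp, whose product is made in response to Notch and limits it, rose when Jag1, Notch3, Hes1 and Hey2 fell. The values of Nrarp were 8.07, 8.27 and 8.32 in untreated cells, 9.28, 9.32 and 9.39 at 6 h, 8.55, 8.51 and 8.57 at 12 h, and 8.48, 8.51 and 8.31 at 24 h. The 6 h arrays stood clear above all the others, and only the 24 h arrays overlapped with the untreated ones. Nrarp was 2.16-fold higher at 6 h (1.11 ± 0.07, adjusted p = 1.6e-07), higher by a smaller margin at 12 h (0.33 ± 0.07, adjusted p = 0.00418) and 1.16-fold higher at 24 h (0.22 ± 0.07, adjusted p = 0.0346). The 24 h call was lost without untreated replicate 1 (adjusted p = 0.131), untreated replicate 2 (0.0502), 24 h replicate 1 (0.0944) or 24 h replicate 2 (0.121), with these groups fitted alone (0.0837) and with all probe sets tested (0.0545). Between 6 and 12 h Nrarp fell by 0.79 on the log2 scale (adjusted p = 8.32e-06).

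The HES and HEY genes had different courses within the same arrays. The difference Hes1 minus Hey1 shifted from its untreated mean by −0.42 at 6 h, −0.92 at 12 h and −1.58 at 24 h, widening at each time. Hey1 minus Hey2 shifted by 0.78, 0.27 and 0.86, and Hey2 minus Heyl by −1.06, −0.59 and −0.95, so that these pairs came closest to their untreated difference at 12 h. SDs within a group were 0.04 to 0.22 for these pairs (n = 3). All 3 differences varied among the groups by the exact permutation test, with p = 6.5e-05, 0.00026 and 0.00019 and adjusted p = 0.00019, 0.00039 and 0.00039 over the 6 pairs.

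Counted over the list, 3 of the 10 members rose and 5 fell at 6 h, where 35.8% of all 14506 genes passed (18.6% higher and 17.2% lower). At 12 h 3 rose and 4 fell, against 26.6% of all genes (13.3% higher and 13.3% lower), and at 24 h 3 rose and 2 fell, against 30.0% (15.3% higher and 14.7% lower). The 24 h rises numbered 1 without untreated replicate 1 or 2 or without 24 h replicate 1 or 2, 4 without 24 h replicate 3, and 5 with array centring. The median log2 change over the members was −0.24, −0.12 and 0.09 at 6, 12 and 24 h, beside 0.01, 0.01 and 0.05 over all genes. Calls were more frequent among bright genes, and 8 of the 10 members lay above the median level. Of the 7253 genes above it, tested alone, 2569 were higher and 2161 lower at 6 h. At 12 h 1878 of them were higher and 1907 lower, and at 24 h 1775 were higher and 2096 lower. The shares of all genes are therefore not matched to the members in level. Between neighbouring times, 4 members rose and 2 fell from 6 to 12 h (27.0% of all genes passed, 13.1% higher and 13.9% lower), and 4 rose and 2 fell from 12 to 24 h (27.5%, 14.0% higher and 13.5% lower). From 6 to 24 h 6 rose and 3 fell, all but Notch2 (39.2% of all genes passed, 19.4% higher and 19.8% lower). Notch2 passed there without 24 h replicate 1 (adjusted p = 0.0322). The 12 to 24 h falls, those of Notch1 and Hey2, numbered 0 without 12 h replicate 3. Only that of Hey2 was left without untreated replicate 3, 12 h replicate 2 or 24 h replicate 2. Without 24 h replicate 3 neither passed, and the 1 fall called was that of Hes1 (limma, adjusted p = 0.0397). Without 6 h replicate 2 or 12 h replicate 1, Hes1 passed in place of Notch1. By the F test over the 4 groups 9 members differed, all but Jag2, against 51.5% of all genes. The members and the pairs were chosen with earlier results of these data known, and the comparisons with untreated cells share the same 3 control arrays.

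The order of group means differed among the members. Jag1, Notch3, Jag2 and Hey1 were highest at 24 h, then in untreated cells, then at 12 h and lowest at 6 h. Of the neighbouring groups in that order, 24 h and untreated did not pass for Jag1, Notch3 and Jag2, nor did untreated and 12 h for Hey1 and Jag2, nor 12 h and 6 h for Hey1 and Jag2. Among these the arrays of the 2 groups overlapped except for Jag1 at 24 h and untreated and Hey1 at untreated and 12 h. The step from 6 to 12 h of Hey1 passed without 6 h replicate 1 (adjusted p = 0.0472). Notch1, Notch2 and Nrarp were highest at 6 h, then at 12 h, then at 24 h, and lowest in untreated cells. There the steps that passed between neighbours were 24 h to untreated and 6 h to 12 h for Nrarp and 12 h to 24 h for Notch1 (−0.15 ± 0.05, adjusted p = 0.0462), while none passed for Notch2. That Notch1 call was lost under 12 of 20 alternatives, among them leaving out untreated replicate 3 (adjusted p = 0.0626), 6 h replicate 2 (0.0574), 12 h replicate 1 (0.0649), 2 (0.125) or 3 (0.0974), or 24 h replicate 2 (0.114) or 3 (0.117). Hes1 descended from untreated to 24 h in order of time, with a step from 12 to 24 h that did not pass. Hey2 descended from untreated over 12 h and 24 h to 6 h, with every step passing. Heyl was lowest at 6 h, then untreated, 12 h and 24 h, and from 12 to 24 h it gained 0.22 ± 0.05 (adjusted p = 0.00806). From 6 to 12 h it gained 0.20 ± 0.05 (adjusted p = 0.0111, and 0.0517 without 6 h replicate 1).

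Of 54 further genes of the core pathway (receptor, ligands, processing enzymes, nuclear partners and other HES family genes), 44 were measured. At 6 h 7 of 44 rose and 11 fell (40.9% passed, median 0.01), at 12 h 3 rose and 8 fell (25.0%, median −0.05) and at 24 h 5 rose and 8 fell (29.5%, median 0.01), shares near those of all genes. The largest change was that of Psen2, which encodes presenilin 2, a catalytic subunit of gamma-secretase. The log2 values of Psen2 were 9.90, 9.93 and 9.96 in untreated cells, 9.09, 9.17 and 9.17 at 6 h, 8.73, 8.81 and 8.83 at 12 h, and 8.36, 8.37 and 8.40 at 24 h. The 4 groups of Psen2 did not overlap and stood in order of time. It was 2.93-fold lower at 24 h (−1.55 ± 0.04, adjusted p = 1.16e-09), after −0.79 ± 0.04 at 6 h and −1.14 ± 0.04 at 12 h. Aph1b, the gene of another secretase subunit, rose at 24 h (0.55 ± 0.05, adjusted p = 1.2e-05). The other measured subunit genes, named after their values were seen, had small changes in both directions. Aph1a was lower at 12 h (−0.21 ± 0.06, adjusted p = 0.0175) and at 24 h (−0.16 ± 0.06, adjusted p = 0.0498), Psenen was lower at 6 h (−0.13 ± 0.04, adjusted p = 0.0219), and Ncstn was higher at 24 h (0.14 ± 0.04, adjusted p = 0.0142). Each of these calls was lost when some single array was left out: Aph1a at 12 h without untreated replicate 2 or 12 h replicate 2 or 3 (adjusted p up to 0.0600), Aph1a at 24 h without any array except 12 h replicate 1 and 24 h replicate 1 (up to 0.176), Psenen without untreated replicate 1 or 3 or 6 h replicate 2 or 3 (up to 0.0819), and Ncstn without untreated replicate 3 (0.0547).

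Rbpj, the gene of the DNA-binding partner of Notch, had values of 9.79, 9.71 and 9.81 in untreated cells, 9.91, 9.83 and 9.87 at 6 h, 9.44, 9.47 and 9.64 at 12 h, and 9.34, 9.15 and 9.25 at 24 h. The 12 h and 24 h arrays were below all untreated and 6 h arrays. Rbpj fell by 0.25 ± 0.06 on the log2 scale at 12 h (adjusted p = 0.0106) and by 0.52 ± 0.06 at 24 h (adjusted p = 6.35e-05), and its 6 h change was 0.10 ± 0.06 (adjusted p = 0.269). Dtx4, which encodes a ubiquitin ligase of the Deltex family, fell at 6 h (−0.93 ± 0.06), less so at 12 h (−0.38 ± 0.06) and again at 24 h (−1.16 ± 0.06, adjusted p = 9.55e-08). Kat2b, the gene of an acetyltransferase coactivator, fell at 6 h (−0.40 ± 0.05, adjusted p = 6.47e-05). Furin, the gene of the protease that cuts Notch receptors on their way to the surface, rose at all 3 times (0.48 ± 0.04, 0.33 ± 0.04 and 0.24 ± 0.04).

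The related repressor genes Bhlhe40 and Bhlhe41, which also act in the circadian clock, went apart. Bhlhe41 fell at 6 h (−0.88 ± 0.06), 12 h (−1.03 ± 0.06) and 24 h (−0.52 ± 0.06). Bhlhe40 rose at 6 h (0.77 ± 0.06, adjusted p = 6.43e-07) and was lower than in untreated cells at 24 h (−0.38 ± 0.06, adjusted p = 0.000306).

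**Figure D3:**
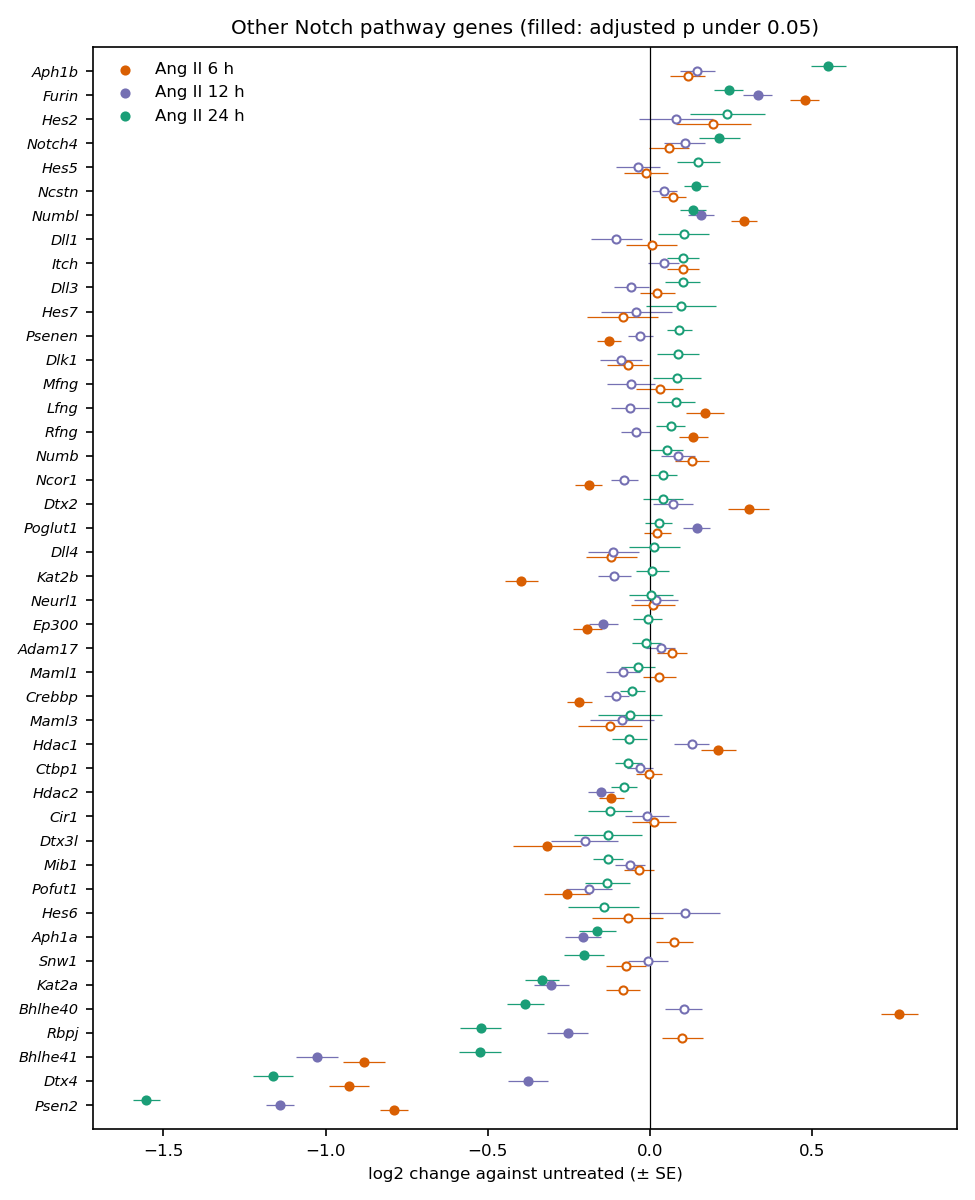
Log2 change against untreated cells (horizontal axis, with SE bars) of the 44 measured further genes of the Notch pathway, sorted by their change at 24 h; colours mark the time of Ang II and filled points passed an adjusted p of 0.05. Psen2 and Dtx4 lie far to the left at 24 h (−1.55 and −1.16), and most other genes lie near 0.

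Genes reported to respond to Notch in mural or smooth muscle cells, from a list of 17 with 15 measured, went both ways. The shares of all genes printed beside theirs are not matched for level, and calls were more frequent among bright genes. At 6 h 3 of 15 rose and 4 fell (46.7% passed, against 35.8% of all genes, median −0.03), at 12 h 4 rose and 5 fell (60.0%, against 26.6%, median −0.04), and at 24 h 5 rose and 4 fell (60.0%, against 30.0%, median 0.07). Efnb2, the gene of the arterial marker ephrin-B2, had values of 11.03, 11.11 and 11.08 in untreated cells, 10.37, 10.31 and 10.44 at 6 h, 10.76, 10.85 and 10.81 at 12 h, and 11.20, 11.03 and 11.06 at 24 h. Its 6 h and 12 h arrays were below the untreated ones and its 24 h arrays overlapped with them. It fell at 6 h (−0.70 ± 0.05, adjusted p = 1.03e-06) and at 12 h (−0.27 ± 0.05, adjusted p = 0.00318). Gucy1a1, a subunit gene of the nitric oxide receptor guanylate cyclase, fell at 6 h (−0.60 ± 0.05) and was lower at 24 h by a smaller margin (−0.24 ± 0.05). Itgb3, an integrin gene, rose at 6 h (0.46 ± 0.08, adjusted p = 0.000446). Ccnd1, the cyclin D1 gene, fell 2.68-fold at 24 h (−1.42 ± 0.05, adjusted p = 7.63e-09) after −0.25 ± 0.05 at 12 h, and the proto-oncogene Myc was lower at 6 h (−0.53 ± 0.05), 12 h (−0.68 ± 0.05) and 24 h (−0.78 ± 0.05).

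The list held 5 contractile genes that are also among the smooth muscle markers given last, and 4 of them rose at 24 h. Smtn was higher by 0.66 ± 0.04 (adjusted p = 3.58e-07), Cnn1 by 0.47 ± 0.04 (adjusted p = 5.72e-06), Myh11 by 0.44 ± 0.04 (adjusted p = 5.18e-06) and Tagln by 0.20 ± 0.04 (adjusted p = 0.00368), while the change of Acta2 was 0.07 ± 0.04 (adjusted p = 0.146). Smtn and Cnn1 were already higher at 6 h (0.26 ± 0.04 and 0.19 ± 0.04) and at 12 h (0.26 ± 0.04 and 0.24 ± 0.04). Myh11, the gene of smooth muscle myosin, had been lower at 6 h (−0.24 ± 0.04, adjusted p = 0.000401) and at 12 h (−0.17 ± 0.04, adjusted p = 0.00598).

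The genes with the course most like that of Jag1, by Pearson correlation of log2 values over the 12 arrays among 492 genes whose group means spanned at least 1 log2 unit, were Otub2 (r = 0.998), Gab1 (0.991), Slc7a2 (0.983), Gphn (0.982) and Hmgxb4 (0.980). Otub2, which encodes a deubiquitinase, was lower by 1.52 at 6 h and by 0.27 at 12 h and was 0.12 above untreated at 24 h, a course close to that of Jag1 at each time. For Hes1 the closest genes were Sfrp2 (0.982), Psen2 (0.980), Thbd (0.978), Adcy2 (0.975) and Omd (0.974), so that Psen2 was both a gene of the pathway and one of the 5 most like Hes1. For Hey2 they were Rhobtb3 (0.991), Sh2d4a (0.990), Palmd (0.989), Sesn3 (0.988) and Dab2 (0.987). These correlations share the 4 groups of arrays and are given as a description.

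**Figure D4:**
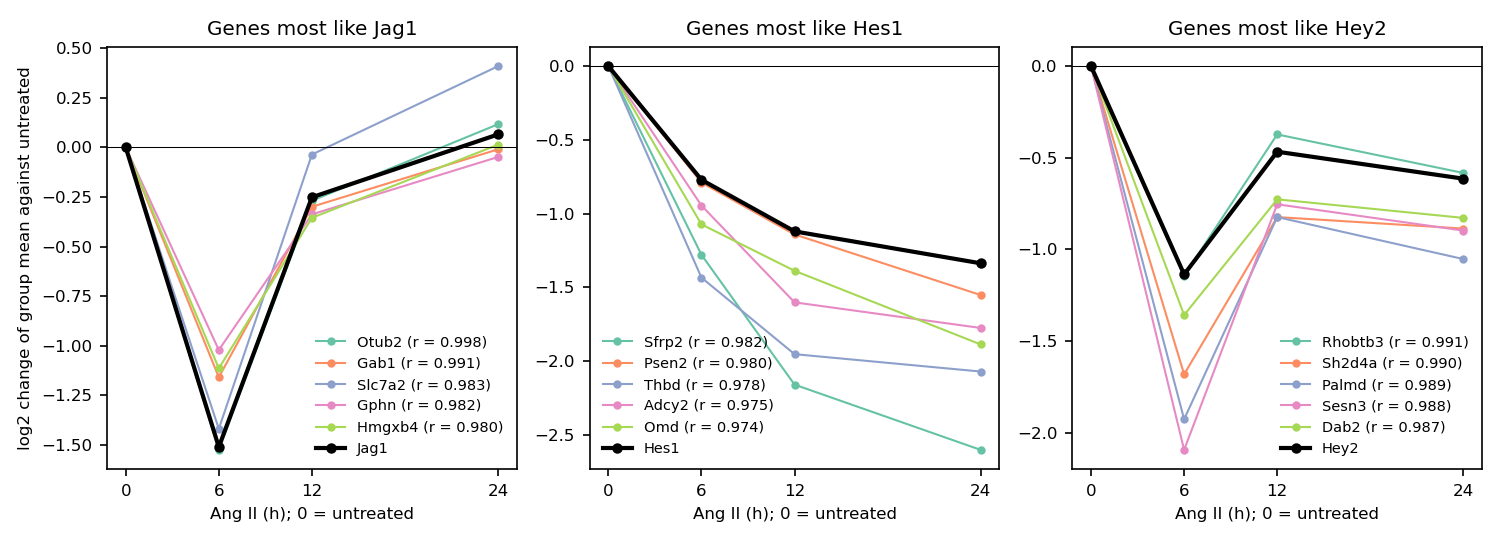
Change of the group mean against untreated cells on the log2 scale (vertical axis) over hours of Ang II (horizontal axis) for Jag1, Hes1 and Hey2 (thick black lines) and for the 5 genes whose values over the 12 arrays correlated best with each (coloured lines, with Pearson r). The Jag1 group dips at 6 h and returns, the means of the Hes1 group descend throughout, and the Hey2 group recovers only in part by 12 h. For Hes1 itself the step from 12 to 24 h did not pass.

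The labelled cell type was checked against markers. Smooth muscle markers (9 measured) had list means of 12.06 to 12.50 per array, with Acta2 at 14.39 and Myh11 at 12.94 in untreated cells. Array medians were 7.92 to 8.03 over the 14506 genes and 7.22 to 7.32 over all 29214 probe sets. Endothelial markers (12 measured) had list means of 6.53 to 6.73, and leukocyte markers (10 measured) of 6.09 to 6.23. In untreated cells single endothelial markers ran from 5.12 (Emcn) to 8.35 (Erg), with Pecam1 at 6.28 and Cdh5 at 6.32. Egfl7 (7.74) and Esam (7.72) came next after Erg. Leukocyte markers ran from 5.34 (Itgam) to 8.22 (Cd14). Endothelium is another vessel wall cell type that makes Jag1 and Hey2. Of the 12 endothelial markers 1 rose and 2 fell at 6 h, 2 rose and 2 fell at 12 h, and 3 rose and 1 fell at 24 h. Those at 24 h were rises of Erg (0.68 ± 0.07), Esam (0.40 ± 0.06) and Cldn5 (0.29 ± 0.08) and a fall of Tek (−0.91 ± 0.09). Of 9 smooth muscle markers 4 rose and 3 fell at 6 h, 5 rose and 1 fell at 12 h, and 8 rose and 0 fell at 24 h. Of 8 fibroblast markers 0 rose and 5 fell at 6 h and at 12 h, and 0 rose and 4 fell at 24 h, with list means of 8.50 to 8.57 in untreated cells, 8.18 to 8.20 at 6 h, 8.15 to 8.17 at 12 h and 8.01 to 8.06 at 24 h. The fibroblast list was split in untreated cells: Col14a1 was at 11.88, Lum at 11.77, Dcn at 10.10 and Pdgfra at 9.65. Dpt was at 8.02, Pi16 at 7.05, Cd34 at 5.63 and Ly6c at 4.20. Col14a1 and Lum stood above the smooth muscle marker Smtn (11.55), and which cells made them was not tested. None of 10 leukocyte markers passed at 6 or 12 h and 1 fell at 24 h. Of all genes 35.8%, 26.6% and 30.0% passed at 6, 12 and 24 h. The part of these shifts in the changes of the Notch genes was not tested.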

How the data were processed

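Gene expression was measured on 12 arrays, grouped by their titles. The values the authors deposited are on a log2 scale, with 1 per probe set on each array. The submitters' processing notes name RMA and Partek. Versions, background correction, summary level and filters were not given in the sources used here. All values lay between 2.25 and 14.6. Arrays have no read depth, and their number limits the precision (median SE of a 24 h log2 change 0.0667).

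Of 29214 probe sets, the platform annotation named 15310 with 1 symbol, 323 with several (not used) and left 13581 unnamed. Symbols were updated through RefSeq (GRCr8). For genes with more than 1 probe set the one with the highest mean over 12 arrays was used, which left 14506 genes.

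The 12 arrays entered 1 fit with 4 group means in limma 3.58.1 in R 4.3.3 (8 residual and 3.37 prior degrees of freedom). P-values were two-sided and adjusted by Benjamini-Hochberg, separately for each comparison and over the 14506 genes, with 0.05 as threshold, which "passed" means throughout. SEs are those of the fit. The 24 h against 6 h comparison was added after the data were seen. Pairs of members were compared by an exact permutation test of the between-group sum of squares of their within-array difference. The named genes are the members, up to 8 passing genes with the largest change in each of 2 lists, and the 5 genes most like Jag1 and like each of the 2 other members of widest range. Aph1a, Psenen, Ncstn, Tagln and Acta2, and marker genes, were named outside this rule after their values were seen. Members and lists were chosen with earlier results of these data known. On simulated data for Ang II 24 h against untreated (14506 genes), 50 genes were changed by each fold. Recovered were 72% of those changed 1.25-fold, 86% at 1.5-fold, 98% at 2-fold and 100% at 4-fold, with 10 unchanged genes called. In the real comparison 30.0% of genes passed, so recovery and false calls there may differ. Promoter windows were read from RefSeq. Python 3.11.15, pandas 2.3.3 and matplotlib 3.10.9 were used. The alternatives tried were a trended and robust variance, centring of array medians, quantile normalization once more, averaged probe sets per gene, every probe set, genes over the median level, each array left out in turn, a replicate block, and the compared groups fitted alone.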

Additional observations from a re-analysis of the deposited data

Results flagged for a closer look

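The level of a member differed between times of Ang II for the results that follow. Each passed the limma test of that difference (adjusted p under 0.05 over all genes). Ang II and time in culture cannot be told apart in them. All values are log2 differences between the later and the earlier time. From 6 to 12 h the differences were 1.26 for Jag1, 0.67 for Hey2, 0.20 for Notch3, 0.20 for Heyl, −0.35 for Hes1 and −0.79 for Nrarp. From 12 to 24 h they were 0.44 for Hey1, 0.39 for Notch3, 0.32 for Jag1, 0.22 for Heyl, −0.15 for Notch1 and −0.15 for Hey2. From 6 to 24 h they were 1.58 for Jag1, 0.60 for Hey1, 0.59 for Notch3, 0.52 for Hey2, 0.42 for Heyl, 0.28 for Jag2, −0.25 for Notch1, −0.57 for Hes1 and −0.89 for Nrarp, which made 9 of 10 members, where 39.2% of all genes passed. Of the 7253 genes above the median level, tested alone, 2095 were higher and 2741 lower from 6 to 24 h. Hey1 passed against untreated cells in opposite directions, lower at 6 h and higher at 24 h, and its 24 h call was lost under 4 of 20 alternatives. From 12 to 24 h the Notch1 call was lost under 12 of 20 alternatives and the Hey2 call under 4 of 20. The 6 to 24 h call of Jag2 was lost under 4 of 19, and the 6 to 12 h call of Heyl under 1 of 19.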

How the results depend on the processing

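Of 1188 values of member changes under an alternative, 1131 kept their direction and their side of the threshold, 34 no longer passed, 22 newly passed and 1 changed sign. That one was the 24 h change of Notch1, which never passed, was −0.0052 without untreated replicate 1 and ranged from −0.0052 to 0.075 over the fits that left out an array. The 6 h counts of members were 3 higher and 5 lower under every alternative run. The 24 h count of members higher, 3 as reported, was 5 with median centring, and 1 to 4 with an array left out. The 12 to 24 h count of members lower, 2 as reported, was 0 with the groups of the comparison alone and with median centring, 1 with all probe sets or with a further quantile normalization, and 0 to 2 with an array left out. It was 3 with only genes above the median level and with a trended and robust variance, where Hes1 newly passed. All 84 alternative values of the paralog pairs stayed past the threshold. With the replicate number as a block, 10 members passed the F test in place of 9, the 12 to 24 h change of Hes1 passed (adjusted p = 0.039) and that of Notch1 did not (adjusted p = 0.0587). The block moved the count of all genes at 6 h from 2703 higher and 2488 lower to 2631 and 2428. Deviations from the group means correlated at over 0.1 in 3 of 18 pairs of arrays of the same number and in 5 of 36 pairs of different numbers. Since not every same-number pair was over 0.1, the numbers were not taken to pair the arrays, although 7 of 12 arrays correlated best with their own number. That rule is no test of pairing, and whether arrays of the same number belong together was not tested. No value could be had for Jag2 and Heyl with genes above the median level only, and the F test was not run with the groups of a comparison alone. The causes of these shifts were not tested. Signal over background is unknown here, which limits what can be said of the dim members Jag2 and Heyl, and of the lowest groups of Hes1 and Hey1.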
